A study of Mus musculus with 12 samples.

Results

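Imprinted genes are expressed mainly from the maternal or mainly from the paternal allele, and 42 of them were examined here for chromatin accessibility in mouse embryonic fibroblasts that received Prox1. Members were the windows of the deposited table that overlap the body of an imprinted gene, or the 10 kb on either side of it, in the GENCODE M21 annotation of mm10. Of 176680 windows, 355 were members, each 201 bases wide. All 42 genes had at least 1 window, and 59 windows were shared by at least 2 of the genes. The genes were named by 43 symbols, of which Zac1 is an older name of Plagl1, and lie in 17 domains on 10 chromosomes.

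The cells were wild-type C57BL/6N fibroblasts of E13.5 embryos, profiled by ATAC-seq, which counts the cuts that the Tn5 transposase makes in open chromatin. Every library of the comparison carried rtTA and 4in1, a lentiviral set of liver-inducing factors, and was taken on day 2 of doxycycline induction. The 4in1_GFP_OE group received GFP in addition and the 4in1_Prox1_OE group received FLAG-tagged mouse Prox1, with 3 libraries in each. The MEF and Prox1_OE groups of the series were not analysed here. The comparison asks how Prox1, a homeobox factor of the hepatocyte lineage, changes accessibility in the course of hepatocyte reprogramming. The embryos were of 1 inbred strain and the reads were not assigned to parental alleles, so that each level covers both alleles.

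Imprinted domains are controlled by differentially methylated regions. Most of these gain methylation in the oocyte and lie at the promoter of a paternally expressed gene, often a long antisense RNA such as Airn or Kcnq1ot1 that silences its neighbors in cis. At H19 and Igf2 the control region lies between the genes, is methylated on the paternal allele and binds the insulator protein CTCF on the maternal allele. The zinc-finger protein ZFP57 binds its methylated hexamer in these regions and maintains their methylation in the early embryo.

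The windows on which the results turn are shown on the plus strand of GRCm38.p6 (mm10), 5′ to 3′. Capitals mark matches on either strand to GGNGGCAG (the core of the CTCF site), TGCCGC (the ZFP57 hexamer), TGANTCA (the site of AP-1, a factor abundant in fibroblasts) or TGTTTAC (a forkhead site). First are the windows upstream of H19 (minus strand), at chr7:142578172-142578372, chr7:142580526-142580726 and chr7:142581749-142581949, shown because the imprinting control region lies upstream of H19. The CTCF core and a ZFP57 hexamer overlap at the first capitals of the last of these windows.
H19 promoter: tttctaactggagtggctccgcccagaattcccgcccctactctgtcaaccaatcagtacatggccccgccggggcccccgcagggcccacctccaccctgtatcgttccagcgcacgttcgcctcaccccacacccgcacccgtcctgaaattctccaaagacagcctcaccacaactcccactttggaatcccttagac
H19 upstream, nearer: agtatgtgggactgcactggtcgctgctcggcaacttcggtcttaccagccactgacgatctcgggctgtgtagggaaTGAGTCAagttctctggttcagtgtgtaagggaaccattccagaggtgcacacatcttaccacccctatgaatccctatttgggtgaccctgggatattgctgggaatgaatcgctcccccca
H19 upstream, farther: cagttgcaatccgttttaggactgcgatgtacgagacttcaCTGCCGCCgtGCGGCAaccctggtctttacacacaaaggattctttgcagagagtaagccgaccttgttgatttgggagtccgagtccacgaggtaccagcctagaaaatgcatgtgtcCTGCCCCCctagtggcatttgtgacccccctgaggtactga
Next are windows at the Airn start (plus strand), at chr17:12741219-12741419 and chr17:12742268-12742468, shown because the levels differed between the groups much more in the first than in the second.
Airn start: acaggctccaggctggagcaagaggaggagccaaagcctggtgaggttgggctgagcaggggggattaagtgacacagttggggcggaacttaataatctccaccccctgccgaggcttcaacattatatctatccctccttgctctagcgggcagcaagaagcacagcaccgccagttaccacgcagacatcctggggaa
Airn downstream: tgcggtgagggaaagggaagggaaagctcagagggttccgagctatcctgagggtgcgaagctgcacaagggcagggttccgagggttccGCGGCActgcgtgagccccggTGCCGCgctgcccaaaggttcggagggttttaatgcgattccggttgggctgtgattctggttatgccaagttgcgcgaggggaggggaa
The last are the intronic windows with the largest fall, at chr7:6761108-6761308 in Usp29, and with the largest and second largest rises, at chr7:6869719-6869919 in Usp29 and chr15:72784285-72784485 in Trappc9.
Usp29 fall: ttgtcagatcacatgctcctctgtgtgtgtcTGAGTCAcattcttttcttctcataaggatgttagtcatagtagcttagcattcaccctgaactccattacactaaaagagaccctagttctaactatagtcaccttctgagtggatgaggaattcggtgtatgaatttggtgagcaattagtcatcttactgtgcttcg
Usp29 rise: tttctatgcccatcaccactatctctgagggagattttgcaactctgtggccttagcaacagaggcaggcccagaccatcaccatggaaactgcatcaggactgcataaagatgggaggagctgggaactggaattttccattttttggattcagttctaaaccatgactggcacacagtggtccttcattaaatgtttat
Trappc9 rise: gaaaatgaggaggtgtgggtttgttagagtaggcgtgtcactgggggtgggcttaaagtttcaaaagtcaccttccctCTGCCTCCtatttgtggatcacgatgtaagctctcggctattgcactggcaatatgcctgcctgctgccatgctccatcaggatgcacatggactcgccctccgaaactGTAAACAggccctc

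The table holds the authors' mean of each group, as the log2 of mean normalized reads, and no value per library. A difference below is the 4in1_Prox1_OE level minus the 4in1_GFP_OE level on that log2 scale, and reads are the same means on the linear scale. From 1 mean per group no error and no test could be computed here, and the depth per library is unknown. The authors' own p-values for the comparison were not used. A window is called lower or higher where the groups differed by at least 1, which is 2-fold. Over all windows of the table the median difference was -0.42, and over all 22215 promoter windows, those within 1 kb of an annotated start, it was -0.21. Both serve as the reference for the imprinted windows. Windows over the Prox1 coding exons, which the vector also carries, had levels from 1.77 to 4.01 with GFP and from 10.67 to 12.74 with Prox1. Promoter windows were present at 10 of 10 fibroblast markers, at 1 of 4 blood, 3 of 4 endothelial, 4 of 4 epithelial and 4 of 4 neural markers, and at 0 of 4 hepatocyte markers (Alb, Afp, Apoa1 and Ttr). The fibroblast marker promoters had a median difference of -0.41, from -1.27 at Prrx1 to 0.20 at Thy1. The epithelial ones had a median of 0.43, from -0.76 at Krt8 to 1.00 at Epcam, the endothelial ones of -0.68, from -1.59 at Pecam1 to -0.03 at Kdr, and the neural ones of 0.04. The part of cell composition in the values below was not tested.

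In the authors' normalization the windows of imprinted domains had lower levels with Prox1, by a median near that of the whole table, but this direction depends on where 0 is placed. The median difference of the 355 windows was -0.35 as deposited, 0.063 with the median of all windows set to 0 and 0.058 with equal total reads. Differences are given as deposited unless stated otherwise. Their quartiles were -0.84 and -0.02, and 76.1% of them were below 0 against 72.3% of all windows. Of the members, 73 were lower by at least 1 (20.6%, against 24.4% of all windows) and 20 were higher (5.63%, against 8.33%), and the other 262 lay between. Both shares were below those of the table. Lower windows made up 78.5% of the called members and 74.5% of the called windows of the whole table. With the median of all windows set to 0, that share was 36.5% among the members and 39.2% in the table, with 19 members lower (5.35%, against 8.64% of all windows) and 33 higher (9.30%, against 13.4%).

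Promoters differed little and windows away from promoters carried most of the calls. The 52 promoter windows of the imprinted genes had a median of -0.19, of which 3 were lower by at least 1 and 2 were higher. Among all promoter windows, 8.26% were lower and 3.16% higher. The 280 members outside every promoter had a median of -0.48 against -0.49 for all such windows, and 25.0% of them were lower against 26.7%. Introns held 230 of the 355 members. Of these 24.3% were lower, against 26.9% of all intronic windows, and 6.52% higher, against 8.58%. The lower and higher windows also started from unlike levels. The 20 higher windows had 4in1_GFP_OE levels from 3.12 to 6.68, all below the median of the table (6.93), whereas the lower windows ranged from 5.46 to 8.97 and 23 of 73 were below that median. The whole table showed the same, with median 4in1_GFP_OE levels of 4.82 for all higher windows and 7.33 for all lower ones. Among the members these medians were 5.36 and 7.36. The difference is computed from the same level, which by itself ties the 2 quantities.

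**Figure D1:**
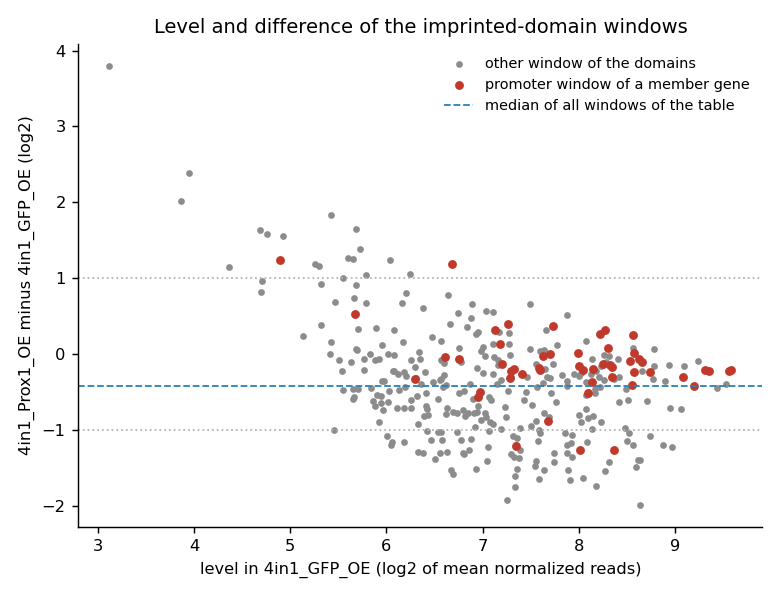
Difference between the groups (log2, y axis) against the 4in1_GFP_OE level (log2 of mean normalized reads, x axis) for the 355 imprinted windows. Each point is 1 window, promoter windows of the imprinted genes are red, dotted lines mark 2-fold and the dashed line the median of all windows (-0.42). The windows above the upper dotted line all have a level of 6.68 or less.

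The domains varied around these medians. All 17 had a median below 0, and 6 had one below the median of all windows. The lowest were those of Igf2r and Airn (34 windows, median -0.84), Mest (6, -0.72), Peg13 and Trappc9 (39, -0.59), Peg10 (56, -0.53), Peg3 (26, -0.50) and Nnat (4, -0.47). The highest were those of Impact (5, -0.01), Dlk1 and Dio3 (17, -0.06), Zrsr1 (11, -0.07), Igf2 and H19 (15, -0.08) and Plagl1 (8, -0.09). The medians of all domains but the 6 lowest would be above 0 with the median of all windows set to 0. The order rests on few windows in the small domains, and on how many of them are promoter windows. Outside every promoter the medians were -0.35 at Dlk1 and Dio3 (6 windows) and -0.29 at Igf2 and H19 (10). They were -0.08 at Plagl1 (7), -0.06 at Zrsr1 (7) and 0.30 at Impact (4), against -0.49 for all windows outside promoters. In gene bodies without flanks the medians were -0.22 at Mest, -0.20 at Nnat, -0.30 at Dlk1 and Dio3 and 0.0091 at Igf2 and H19. Without the 25% of windows of lowest concentration they were -0.30 at Dlk1 and Dio3, -0.26 at Plagl1, -0.13 at Zrsr1 and -0.089 at Impact. Lower windows numbered 18 of 56 in the Peg10 domain (32.1%), 12 of 34 at Igf2r and Airn (35.3%) and 10 of 39 at Peg13 and Trappc9 (25.6%, near the 24.4% of all windows). None of the 17 windows at Dlk1, Meg3, Rtl1, Mirg and Dio3 was lower or higher by 1, and their differences ran from -0.95 to 0.55. Of these 17, however, 6 lay outside every promoter, and among all promoter windows 8.26% were lower and 3.16% higher.

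**Figure D2:**
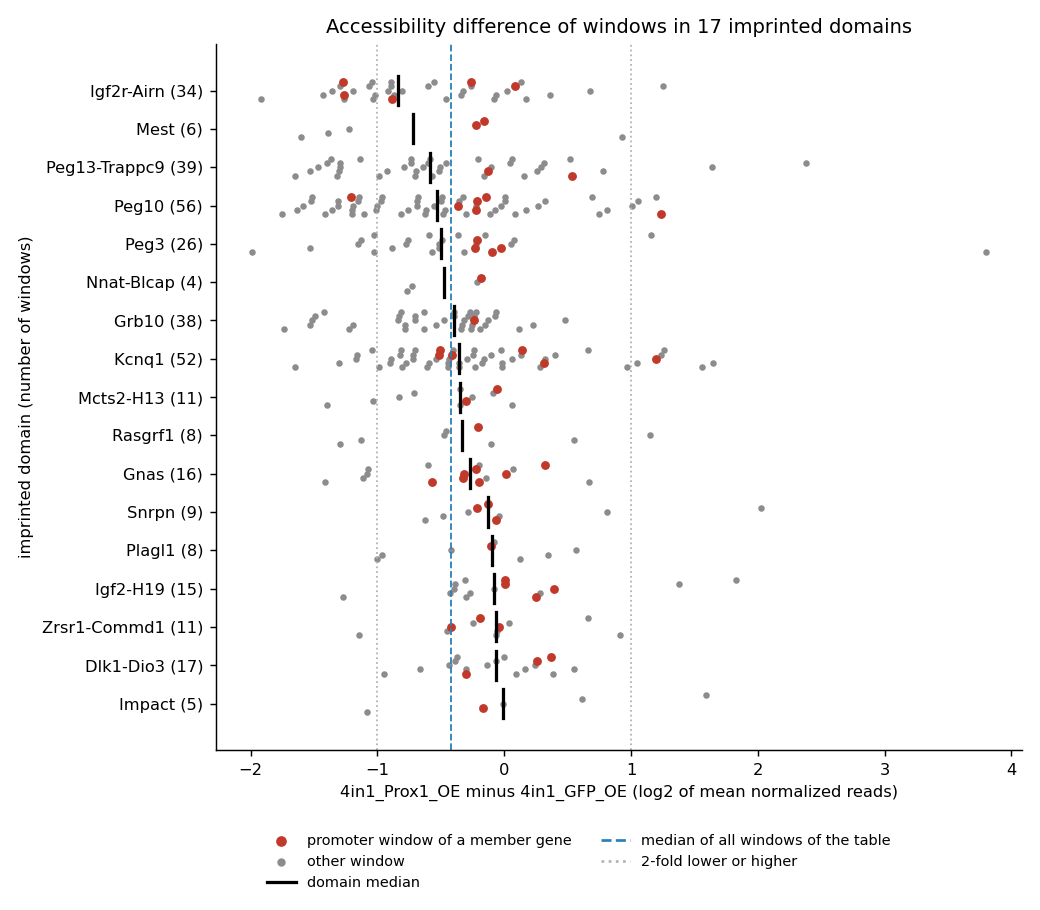
Difference of each window (log2, x axis) by imprinted domain (y axis, number of windows in brackets), ordered by the domain median (black bar). Red points are promoter windows of the imprinted genes, the dashed line is the median of all windows (-0.42) and dotted lines mark 2-fold. The domain of Igf2r and Airn lies lowest (-0.84), and most red points lie between the dotted lines.

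Promoters that carry a maternal methylation imprint formed the first group of genes. Each gene was represented by its most accessible promoter window, and the matched reference is that window in 15153 protein-coding genes, with a median difference of -0.19. The quartiles of that reference were -0.32 and -0.08, so that most matched windows differed by less than 1.5-fold. Of 16 genes, 15 had a promoter window and 14 of these differed by less than 1.5-fold as well. The median of the list was -0.16, and 10 of the 15 genes lay above the matched median. Plagl1, a zinc-finger regulator of growth, went from 404 reads with GFP to 375 with Prox1 (-0.11). Peg3, a zinc-finger gene, and Usp29, a ubiquitin protease gene read in the opposite direction, share a window that went from 371 to 347 reads (-0.10). The levels of both groups were thus within 10% of each other at these promoters.

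The remaining windows of this list were close as well, apart from that of Airn. Mest, a hydrolase gene, had 257 and 230 reads (-0.16). Grb10, an adaptor that restrains insulin signaling, had 430 and 364 reads at the start with the most accessible window (-0.24). The maternal imprint of this gene is known at another of its promoters, near which a window with 20 CpG dinucleotides, at chr11:12025850-12026050, had 219 and 238 reads (0.12). Peg10, a retrotransposon-derived gene of the placenta, and Sgce, which encodes a sarcoglycan, share a window with 263 and 227 reads (-0.21). Nespas, the antisense RNA of the Gnas locus, had 381 and 384 reads, the single value of the list above 0 (0.01). All of the list but Airn were above 0 once the median of all windows was set to 0, and the median of the list was then 0.25.

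Snrpn, a splicing protein gene of the Prader-Willi region, was lower in level than the others and nearly equal in both groups, with 108 and 104 reads (-0.06). Zrsr1, an intronless splicing factor gene, had 160 and 140 reads (-0.19). Impact, a regulator of translation, had 325 and 289 reads (-0.17). The intronic RNA Peg13 had 306 and 280 (-0.13), and the retrogene Mcts2 396 and 380 (-0.06). Kcnq1ot1, the antisense RNA that silences the Kcnq1 domain, had 377 and 284 reads and, after Airn, the largest difference of the list (-0.41). Nnat, a proteolipid gene, had no window within 1 kb of a start.

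**Figure D3:**
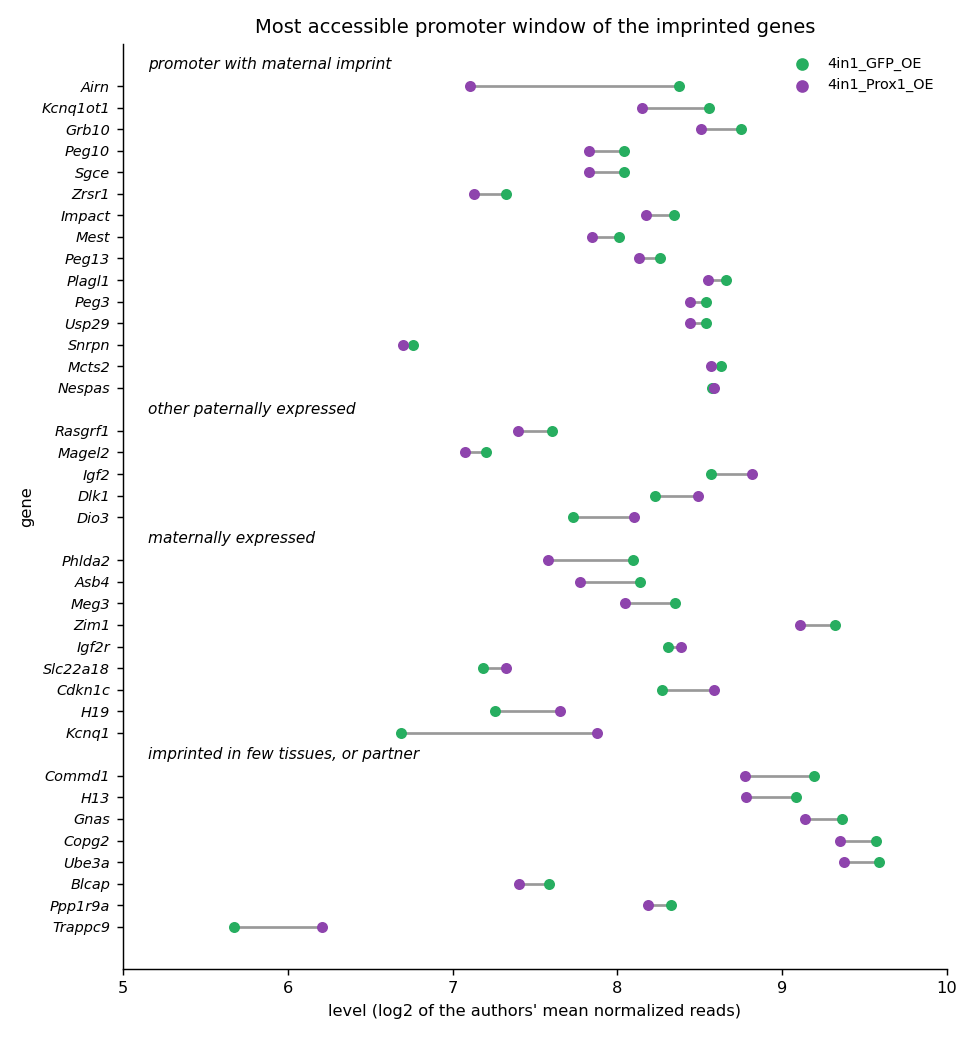
Level of the most accessible promoter window of each imprinted gene (x axis, log2 of the authors' mean normalized reads) in 4in1_GFP_OE (green) and 4in1_Prox1_OE (purple), by group of genes (y axis). Airn has the longest bar to the left (8.37 to 7.11) and Kcnq1 the longest to the right (6.68 to 7.88).

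Airn was the exception among these promoters. Its start window went from 331 reads with GFP to 138 with Prox1 (-1.26), and 3.94% of all promoter windows had a difference this low or lower. Neighboring windows of Igf2r, the receptor gene that Airn overlaps and silences, were lower too. Within 10 kb of the Airn start, a span added after the design was written, 5 of 6 windows were lower by at least 1 (24.4% of all windows were). They lay at -6815, -3170 and -908 bases from the nearest annotated start (-1.36, -1.19 and -1.27), at the start itself and 8196 bases past it (-1.27). The exception, at 970 bases, went from 171 to 142 reads (-0.26). This window holds both ZFP57 hexamers shown above and 15 CpG dinucleotides, against 0 hexamers and 5 CpG in the start window. Igf2r itself had 316 and 335 reads at its promoter (0.08). The largest fall of the domain lay in a distal Igf2r intron, from 153 to 40.4 reads (-1.92). In all, 35.3% of the 34 windows of the domain were lower, against 24.4% of the table. With the median of all windows set to 0, the difference at the Airn start was -0.85 and 0 of the 6 windows near it were lower by at least 1, against 8.64% of all windows. With the median of promoter windows set to 0 there were 4, against 15.7% of all windows.

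**Figure D4:**
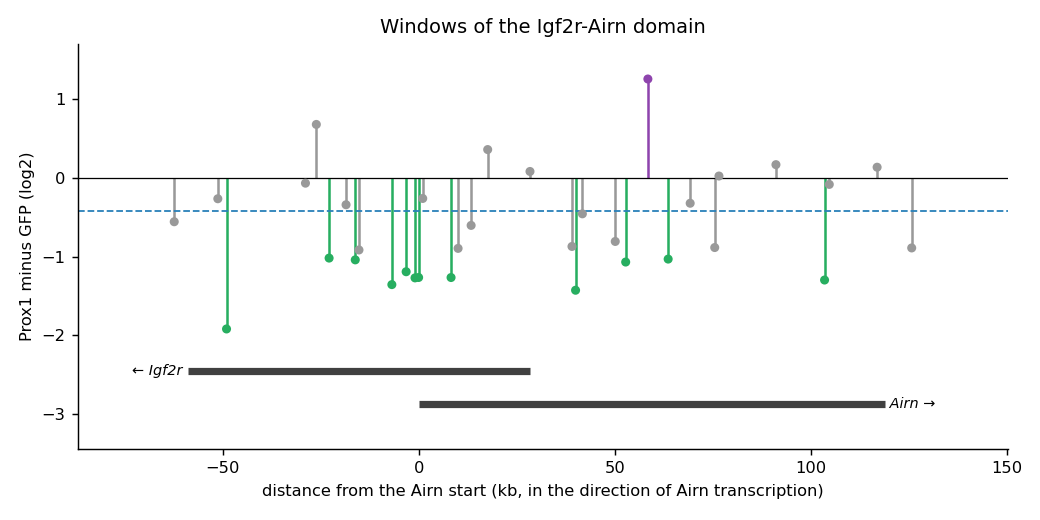
Difference of the windows of the Igf2r and Airn domain (log2, y axis) against the distance from the Airn start (kb, x axis), with the genes as bars and their direction as arrows. Green stems are lower by at least 1, purple ones higher, and the dashed line is the median of all windows. Of the 6 windows within 10 kb of the Airn start 5 are green, while the window at the Igf2r start, at the right end of its bar, is at 0.08.

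Among other paternally expressed genes, the promoters of Igf2, Dlk1 and Dio3 had higher levels with Prox1. Of 7 genes, 5 had a promoter window, 4 of the 5 lay above the matched median, and their own median was 0.25. Igf2, the fetal growth factor, had 379 reads with GFP and 451 with Prox1 (0.25). Dlk1, a Notch-like ligand that restrains adipocyte differentiation, had 300 and 359 (0.26). Dio3, the deiodinase that inactivates thyroid hormone, had 213 and 274 (0.37). Magel2, a ubiquitin ligase regulator, had 147 and 135 (-0.13) and Rasgrf1, an exchange factor of Ras, 194 and 168 (-0.21). None of the 5 reached 2-fold, and among all promoter windows 8.26% were lower and 3.16% higher by at least that much. Of all promoter windows, 9.74% had a higher difference than Dio3, 11.8% than Dlk1 and 11.9% than Igf2. Rtl1 and Ndn had no window within 1 kb of a start.

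Maternally expressed genes spread in both directions. Of 9 promoters with a window, 5 were above 0 and the same number above the matched median. Phlda2 alone was below 0 (-0.095) with the median of all windows set to 0. H19, the growth-restraining RNA that shares enhancers with Igf2, had 153 and 201 reads (0.39). Cdkn1c, the cell-cycle inhibitor p57, had 309 and 385 (0.32). Slc22a18, a transporter gene, had 145 and 160 (0.14). Meg3, the RNA of the Dlk1 domain, was lower, with 326 and 265 reads (-0.30). Phlda2, which limits placental growth, had 273 and 192 (-0.51) and Asb4, a gene of the Peg10 domain, 281 and 219 (-0.36). Asb4 had further promoter windows that went apart, from 162 to 70.1 reads (-1.21) and from 29.7 to 70.2 (1.24). Zim1, a zinc-finger gene next to Peg3, had the highest level of the group, with 638 and 551 reads (-0.21). Mirg had no window within 1 kb.

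Kcnq1, a potassium channel gene, had the largest rise when each gene was taken at its most accessible promoter window. The window over the coding exon at its start, at chr7:143107181-143107381, went from 103 to 235 reads (1.19), and 2.36% of promoter windows had a larger difference. It is rich in CpG, with 17 dinucleotides and 75.6% G or C. Of the 52 windows of its domain 6 were higher (11.5%, against 8.33% of all windows) and 5 lower (9.62%, against 24.4%), all within the Kcnq1 gene. Another higher window lay over a non-coding exon 222108 bases past the nearest Kcnq1 start, from 51.3 to 160 reads (1.64), and a further one in an intron, from 65.9 to 155 (1.24). The lower windows included one over Kcnq1ot1, from 192 to 61.2 reads (-1.65). Within the domain, higher and lower windows were thus interspersed.

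**Figure D5:**
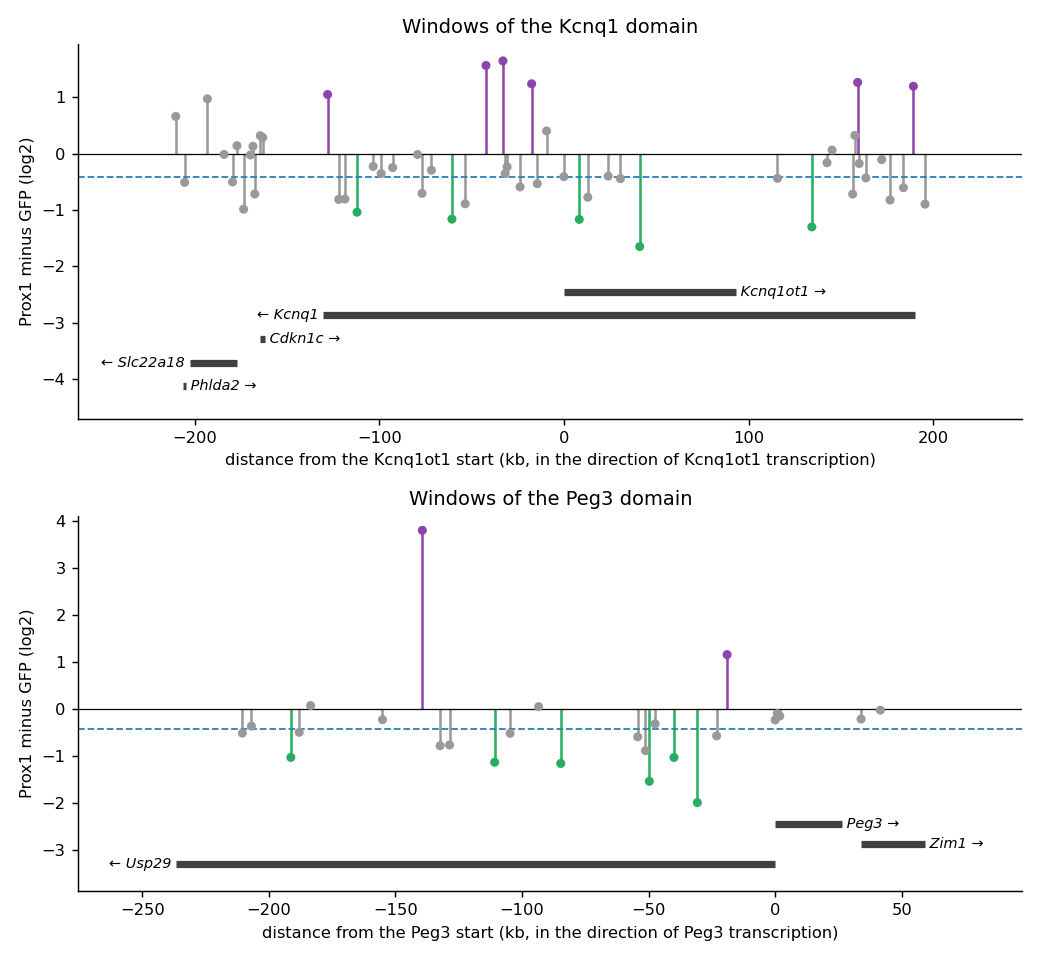
Difference of the windows (log2, y axes) in the Kcnq1 domain (top) and the Peg3 domain (bottom) against the distance from the Kcnq1ot1 or Peg3 start (kb, x axes), with genes as bars. Purple stems are higher and green stems lower by at least 1, and the dashed line is the median of all windows. The tallest stem of the lower panel is the Usp29 window at 3.80, and the Peg3 promoter lies close to 0.

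Partner genes of the domains, and genes imprinted in few tissues, had promoters near the reference, apart from Commd1 and Trappc9. Copg2, Gnas, Ube3a and H13 were among the most accessible, from 542 to 770 reads with GFP, with differences of -0.22, -0.22, -0.21 and -0.30. Commd1 had 586 and 438 reads (-0.42), Blcap 192 and 169 (-0.18) and Ppp1r9a 320 and 291 (-0.14). Trappc9, the host gene of Peg13, had a weak window with 51.0 and 73.9 reads (0.53). Ddc had none. Over all imprinted genes, 37 of 42 had a promoter window, of which 22 were above the matched median and 10 above 0. Their median level with GFP was 8.31 on the log2 scale, against 9.04 for the matched windows.

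At the H19 locus, accessibility was measured in 3 windows upstream of the start. The promoter window, at -129 bases, is given above (0.39). The next, at -2483 bases, had 203 and 164 reads (-0.31) and holds an AP-1 match. The third, at -3706 bases, had 197 and 151 reads (-0.39) and holds 2 CTCF cores and 2 ZFP57 hexamers. Relative to the median of all windows the latter differed by 0.03. The largest rise of the locus was 7392 bases downstream of the H19 start, on the side of its known enhancers, from 43.0 to 153 reads (1.83). A window 10425 bases from an Igf2 start rose from 52.8 to 137 reads (1.38), and one downstream of H19 with an AP-1 match fell from 168 to 69.9 (-1.27).

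Among the windows above the median concentration of the table, the 6 largest falls were all outside promoters. The largest was the Usp29 intron shown above, from 397 to 100 reads (-1.99), and 0.407% of all windows had a difference this low or lower. Falls of -1.75 to -1.64 followed in introns of Ppp1r9a (162 to 48.1 reads), Ddc (290 to 87.2), Trappc9 (240 to 76.4) and Sgce (264 to 84.9), beside the Kcnq1ot1 window. The Usp29 and Sgce windows hold an AP-1 match. The 6 largest rises under the same limit were the 3 Kcnq1 windows and windows of Ppp1r9a (75.8 to 157 reads, 1.05), Trappc9 (99.7 to 171, 0.78) and Commd1 (180 to 285, 0.66), of which the last 2 did not reach 2-fold. Larger rises at lower levels were picked after their values were seen. They were the Usp29 intron from 8.68 to 121 reads (3.80), the Trappc9 intron from 15.4 to 80.2 (2.38) and a Ube3a intron from 14.5 to 59.0 (2.02). Each started from under 16 reads, where a few reads move the difference most.

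The sequences of the windows were described by their motif matches. CTCF cores were present in 40 members (11.3%, against 8.37% of all windows), and 3 of the 40 were lower and 1 higher by at least 1 (7.50% and 2.50%, against 14.4% and 7.21% of all windows with the core). ZFP57 hexamers were present in 25 members (7.04%, against 4.16%), and in 25.0% of the promoter windows of the imprinted genes against 14.2% of all promoter windows. None of the 25 was lower or higher by 1, against 8.40% lower and 4.91% higher among all windows with the hexamer, and their median was -0.21. Promoter windows, which were called less often, made up 15 of the 25 and 3151 of all 7347 windows with the hexamer. AP-1 sites were present in 85 members (23.9%, against 28.8%). Of these 85, 35 were lower (41.2%, against 39.8% of all windows with the site) and 2 higher (2.35%, against 5.81%). Seen from the lower windows, 35 of 73 held an AP-1 site (47.9%, against 46.9% in the table), and 2 of the 20 higher ones did (10.0%, against 20.0%). Forkhead sites were present in 5 members (1.41%, against 2.65%). Promoters are richer in G and C than other windows, and the hexamer share of the members outside promoters was 3.57% against 2.72%.

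Genes that maintain imprints were set beside the members, as were other imprinted genes that were not members, several of them in or next to these domains. Of 18 genes for imprint maintenance and DNA methylation, 15 had a promoter window, with a median of -0.22. None was lower or higher by 1, against 8.26% lower and 3.16% higher among all promoter windows. Trim28, the corepressor that ZFP57 recruits, had the highest difference (0.02). Dnmt3l, a cofactor of methylation in germ cells, had the lowest (-0.81), at a low level of 6.49 on the log2 scale. Zfp57 and Zfp445 were at -0.35 and -0.38, and the maintenance methyltransferase Dnmt1 at -0.04. Of 18 other imprinted genes, 17 had a window, with a median of -0.17 and none past 2-fold, against the same 8.26% and 3.16%. They ranged from the calcitonin receptor gene Calcr (-0.65) to Klf14 (0.79), a zinc-finger gene, with Slc22a3, a neighbor of Airn, at 0.64 and Osbpl5, in the Kcnq1 region, at -0.57.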

How the data were processed

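ATAC-seq libraries of 4 groups with 3 replicates each were labelled, and the deposited table covers 4in1_GFP_OE and 4in1_Prox1_OE. Per the submitters' notes and the study's methods, the authors used Trimmomatic 0.38 for trimming and Bowtie2 2.3.4.3 for alignment to mm10, and filtered and recalibrated them for Tn5 bias with SAMtools 1.10, Picard 2.18.16 and bedtools 2.27.1. The methods name MACS2 2.1.2 as the peak caller and the reporting summary names Genrich. DiffBind 3.4.11, run per the methods after its own vignette, then counted reads in consensus windows. The normalization setting itself, and whether peaks were called per library or on pooled reads, are not given in the sources used here.

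The values used are the deposited log2 mean normalized reads of each group, which are the authors' means. The table also holds the authors' own fold changes, p-values and FDR, and 2 lists hold windows chosen by that comparison. None of these was used. Groups come from the labels. Totals of linear values over the windows were 31016876 with GFP and 23306866 with Prox1 (ratio 0.751). The deposited values thus have neither equal totals over the windows nor equal medians, and totals of whole libraries are not known. Depth per library is unknown, and replicates could not be compared.

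Differences, GENCODE M21 basic annotation, motif matches on the GRCm38.p6 sequence and summaries were computed with Python 3.11.15, pandas 2.3.3 and scipy 1.17.1. Window assignment was tested on simulated data. Coordinates are 1-based, and distances run from the nearest annotated start of the gene to the window centre. A promoter window lies within 1 kb of a start, with 2 kb as an alternative. Named windows were each gene's promoter window of highest mean concentration, the 6 largest falls and 6 largest rises above the median concentration (6.71), and all windows upstream of H19. The members and lists were chosen with earlier results of these data known. The forkhead motif and the count within 10 kb of the Airn start were added after the design was written. Alternatives changed the zero, the filter on concentration, the flank, the overlap, the domains, the pseudocount, the promoter width and the fold.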

Additional observations from a re-analysis of the deposited data

How the results depend on the processing

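Where 0 is placed decided the sign of the medians. With the median of all windows set to 0, the median of the imprinted windows became 0.063, that of their promoter windows 0.23 and that of promoters with a maternal imprint 0.25, with 19 windows lower and 33 higher (5.35% and 9.30%, against 8.64% and 13.4% of all windows). With equal total reads the medians were 0.058, 0.22 and 0.25, with 20 lower and 33 higher (5.63% and 9.30%, against 8.80% and 13.3%). With the median of the most accessible 10% of windows set to 0 they were -0.092, 0.074 and 0.10, with 40 lower and 27 higher (11.3% and 7.61%, against 13.9% and 11.2%). The median of promoter windows set to 0, an alternative added after the data were seen, gave -0.14, 0.026 and 0.052, with 42 lower and 25 higher (11.8% and 7.04%, against 15.7% and 10.6%). Without the 25% of windows of lowest concentration, 62 of 284 windows were lower and 10 higher (21.8% and 3.52%, against 26.7% and 4.14% of all windows left). At 1.5-fold, 133 were lower and 33 higher (37.5% and 9.30%, against 42.4% and 13.4%). ZFP57 hexamers were in 3.57% of members outside promoters, against 2.72% of all windows there. Of the alternatives that could move a comparison result, the other 31 stayed within the interval of the median or share, or within 1.5 times the count. They included the region without flanks, the domains without Peg10, a pseudocount of 1 read, promoters of 2 kb and the imprint list without Airn. The interval treats windows as independent, which neighbors in 1 domain are not, and is no error between libraries. Many of these alternatives also share most windows with the main setting. For single domains and windows, 186 alternatives stayed and 251 moved.

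No paired analysis was possible because only group means, and no values per library, were used. For the same reason no replicate was left out, and no test across libraries was run. A level of a few reads has no error here, which limits the rises from low levels most.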
